A study of Mus musculus with 6 samples.

Results

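Cytochrome c oxidase, complex IV, is the last enzyme of the mitochondrial electron transport chain: it takes electrons from cytochrome c, passes them to oxygen and pumps protons across the inner membrane. Its catalytic core is encoded by mitochondrial DNA, and the nuclear genome encodes the smaller subunits around that core. Several of these subunits exist as isoforms, a form made in nearly every tissue and a form kept to tissues such as heart, skeletal muscle, brown fat, lung or testis. The 10 isoform genes of subunits 4, 6a, 7a and 8 were taken by name, without a filter on their values, though earlier results of these data were known. Each gene had 1 probeset, the one with the highest mean over all arrays among those with a single gene symbol. All 10 were measured, out of 19937 genes on the array.

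The tissue was gonadal white adipose tissue (GWAT) of male mice aged 4 months, kept on a chow diet and on a C57BL/6J background. Mice of the ob/ob/Fsp27-/- group lacked both leptin and Fsp27, a lipid droplet protein of white adipocytes encoded by Cidec, in every tissue, whereas ob/ob mice lacked leptin only. Each genotype had 3 arrays (GeneChip Mouse Gene 1.0 ST), each hybridized with a pool of RNA of 3 mice, so that n counts pools and says nothing of how single mice vary. The pooling is given in the methods and not in the sample labels. No mice with normal leptin were among the samples. Values are on the log2 scale of the Robust Multi-array Average (RMA), where a difference of 1 is a doubling, and levels of different genes cannot be set against each other because their probes differ. Calls of higher or lower expression required a limma adjusted p below 0.05 together with a log2 difference of 0.5 or more in either direction.

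Over the tested probesets, arrays of the same genotype correlated at 0.988 to 0.994 and arrays of different genotypes at 0.943 to 0.965. The Cidec probeset read 11.34, 11.51 and 11.53 in ob/ob/Fsp27-/- arrays and 11.49, 11.78 and 11.98 in ob/ob arrays. That difference was not called (-0.29, adjusted p = 0.157 from limma), and the place of its probes in the gene is not annotated, so it is no check of the deletion. The adipocyte marker Adipoq, which encodes adiponectin, lay between 12.28 and 12.48 in ob/ob/Fsp27-/- arrays and between 10.59 and 11.68 in ob/ob arrays, far above the array median of 6.49 in all of them. Macrophage markers differed between the genotypes as a whole list: 15 of 15 were lower, against 10.8% of all genes. Their mean level ran between 8.16 and 8.34 in ob/ob/Fsp27-/- arrays and between 10.46 and 10.68 in ob/ob arrays. In such bulk tissue, more cells of a type and more RNA per cell cannot be told apart, and the part of the macrophage difference in the changes below was not tested.

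Of the 10 isoform genes, 6 were higher in ob/ob/Fsp27-/- GWAT, namely Cox8b, Cox7a1, Cox4i1, Cox6a1, Cox7a2 and Cox8a, while 0 were lower and 4 were not called. Over all 19937 genes, 20.4% were called, 9.58% as higher and 10.8% as lower. The log2 fold changes of the 6 called genes ran between 1.03 and 3.99, and those of the others, Cox6a2, Cox7a2l, Cox4i2 and Cox8c, between 0.10 and 0.43. The median over the 10 was 1.07, against 0.058 over all genes. In all 10 the 3 ob/ob/Fsp27-/- arrays lay above the 3 ob/ob arrays on the deposited scale, but the 4 genes not called turned negative when arrays were centred on white adipocyte markers. Over all genes, 46% had genotypes that did not overlap. The 6 called genes did not fall into ubiquitous and tissue forms: they were all 4 ubiquitous forms, together with the muscle and brown fat forms of subunits 7a and 8.

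**Figure D1:**
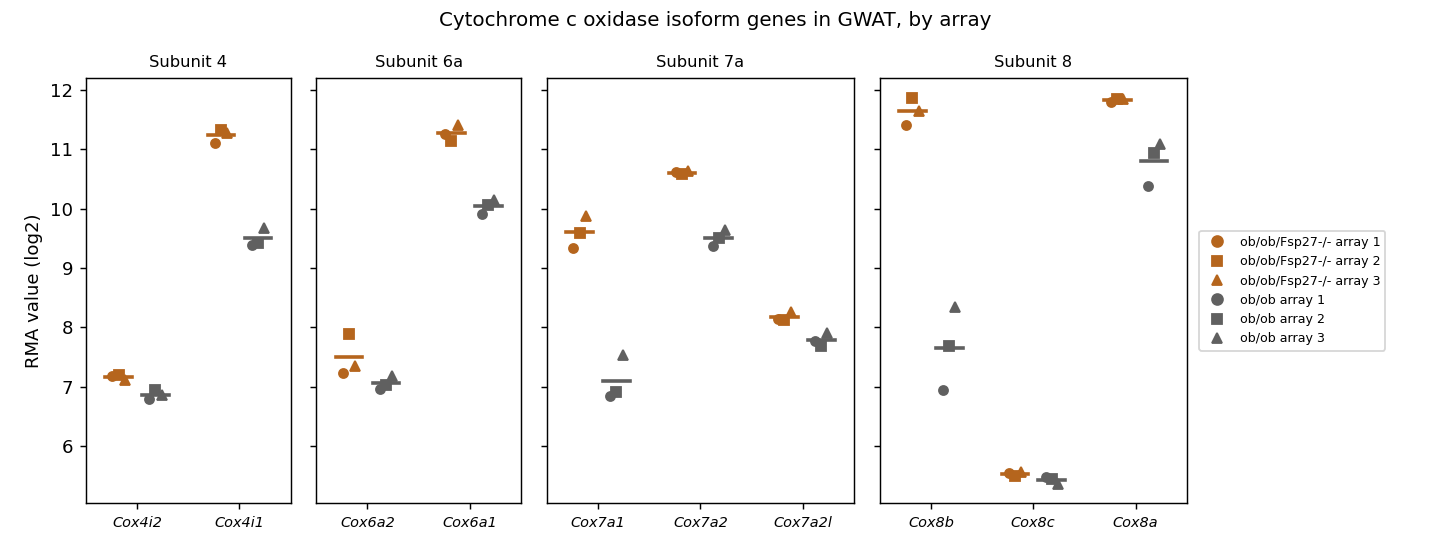
RMA values (log2) of the 10 isoform genes in single arrays, with ob/ob/Fsp27-/- arrays left of ob/ob arrays within each gene, tissue forms left of ubiquitous forms and a bar at each mean. Cox8b and Cox7a1 show the widest gaps between genotypes, and Cox8c the narrowest.

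Promoter windows of 300 bases, 250 before and 50 from the annotated start, were read from RefSeq (GRCm38.p6) for the 6 isoform genes that the table held, Cox6a1, Cox7a1, Cox7a2, Cox7a2l, Cox8a and Cox8b. Cox4i1, Cox4i2, Cox6a2 and Cox8c had no entry. The windows of the 5 called genes are shown because 3 are ubiquitous forms and 2 are muscle and brown fat forms that were called together. They run 5′ to 3′ on the gene's own strand, and capitals mark matches on either strand to the motifs described after them.
Cox8b, chr7:140900397-140900696, minus strand: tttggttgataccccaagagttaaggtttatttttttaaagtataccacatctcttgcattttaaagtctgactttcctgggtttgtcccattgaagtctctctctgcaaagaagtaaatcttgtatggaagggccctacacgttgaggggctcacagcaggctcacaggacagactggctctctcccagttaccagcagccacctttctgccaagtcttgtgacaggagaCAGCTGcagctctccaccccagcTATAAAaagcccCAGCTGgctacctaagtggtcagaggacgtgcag
Cox7a1, chr7:30183921-30184220, plus strand: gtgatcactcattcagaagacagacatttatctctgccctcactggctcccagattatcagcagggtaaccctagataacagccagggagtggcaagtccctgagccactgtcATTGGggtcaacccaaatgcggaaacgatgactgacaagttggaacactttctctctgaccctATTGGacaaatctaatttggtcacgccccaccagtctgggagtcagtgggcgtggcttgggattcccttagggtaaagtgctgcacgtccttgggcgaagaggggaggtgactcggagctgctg
Cox8a, chr19:7217567-7217866, minus strand: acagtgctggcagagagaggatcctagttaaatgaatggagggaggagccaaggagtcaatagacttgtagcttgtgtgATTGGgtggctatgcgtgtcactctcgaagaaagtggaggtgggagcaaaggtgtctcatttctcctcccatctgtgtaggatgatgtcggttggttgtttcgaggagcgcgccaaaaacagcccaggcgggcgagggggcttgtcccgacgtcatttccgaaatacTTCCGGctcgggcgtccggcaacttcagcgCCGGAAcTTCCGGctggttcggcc
Cox7a2, chr9:79759804-79760103, minus strand: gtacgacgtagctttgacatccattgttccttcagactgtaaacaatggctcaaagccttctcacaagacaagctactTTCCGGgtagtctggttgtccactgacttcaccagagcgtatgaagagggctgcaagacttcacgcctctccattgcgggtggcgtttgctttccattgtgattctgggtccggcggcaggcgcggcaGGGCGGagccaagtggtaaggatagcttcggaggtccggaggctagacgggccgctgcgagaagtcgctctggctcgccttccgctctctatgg
Cox6a1, chr5:115348909-115349208, minus strand: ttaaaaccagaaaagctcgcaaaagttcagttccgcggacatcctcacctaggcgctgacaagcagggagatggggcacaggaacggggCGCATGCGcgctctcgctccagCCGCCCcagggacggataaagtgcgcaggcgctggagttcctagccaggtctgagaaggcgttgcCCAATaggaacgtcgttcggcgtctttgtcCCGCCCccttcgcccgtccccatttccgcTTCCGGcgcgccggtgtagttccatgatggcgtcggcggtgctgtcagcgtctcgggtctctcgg

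The windows of the muscle and brown fat forms held fewer CpG dinucleotides than those of the ubiquitous forms. There were 2 CpG in the Cox8b window and 7 in that of Cox7a1, against 19 in the Cox8a, 20 in the Cox7a2 and 32 in the Cox6a1 window, and the median over all 32851 windows of this length was 7. The Cox7a2l window held 19. The share of G and C bases was 48.3% for Cox8b and 53% for Cox7a1, against 56% for Cox8a, 56.7% for Cox7a2 and 63% for Cox6a1.

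Motif matches also differed between the windows. The ETS core CCGGAA, a binding sequence of the GABP factor known from promoters of nuclear-encoded mitochondrial genes, occurred 3 times in the Cox8a window and 1 time each in those of Cox7a2 and Cox6a1, and in neither the Cox8b nor the Cox7a1 window. It is present in 14.9% of all windows. In Cox8a its matches lay at bases -4 to 2, 27 to 32 and 34 to 39, with the annotated start as base 1 and bases before it negative. The core GCATGCG of the factor NRF1, in 3.58% of all windows, matched at 2 overlapping places in Cox6a1 alone among the 6 genes. The Cox8b window was the single one of the 6 with the TATA box TATAAA, found in 13.6% of all windows, and it was also the single one with the E-box CAGCTG of muscle regulatory factors, which it held 2 times and which 16.3% of all windows hold. The TATAAA match lay after the annotated start, at bases 5 to 10. The E-box matches lay at -19 to -14 and, after the start, at 17 to 22. Matches to the GC box GGGCGG, in 35.7% of all windows, were found in Cox6a1 and Cox7a2l, 2 each, and in Cox7a2, 1. The CCAAT box, in 37.4% of all windows, was matched 2 times in Cox7a1 and 1 time each in Cox8a and Cox6a1. The MEF2 sequence (CTA and TAG with 4 bases between them), in 3.69% of all windows, and the extended half-site AAGGTCA of the oestrogen-related receptors, in 4.72%, had no match in any of the 6 windows. These matches describe letters only, and no binding was measured.

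Cox8b is the heart, skeletal muscle and brown fat form of subunit 8, a small membrane subunit of the enzyme, and is widely used as a marker of brown and beige fat in mice. Its RMA values were 11.41, 11.88 and 11.65 in ob/ob/Fsp27-/- arrays and 6.94, 7.69 and 8.34 in ob/ob arrays. The lowest ob/ob/Fsp27-/- array thus lay far above the highest ob/ob array, and the ob/ob arrays were spread more widely among themselves (SD 0.70, against 0.23 in ob/ob/Fsp27-/-, n = 3 each). The log2 fold change of 3.99 ± 0.33 (SE, n = 3 arrays each), a fold of 15.9, was the third of all 19937 genes in size among increases, with an adjusted p of 0.000238 from limma. Leaving out each array in turn gave 3.63 to 4.33.

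Cox8a is the ubiquitous form of the same subunit. It read 11.80, 11.85 and 11.86 in ob/ob/Fsp27-/- arrays and 10.39, 10.94 and 11.09 in ob/ob arrays. The ob/ob/Fsp27-/- arrays were nearly equal, and ob/ob array 1 was the lowest of the 6, as it was for Cox8b. Cox8a was higher by 1.03 ± 0.17 on the log2 scale (SE, n = 3 each, adjusted p = 0.00438 from limma). It was not called when the increase itself had to exceed 0.5 by limma's treat test (adjusted p = 0.102). Cox8c, the testis form, read 5.55, 5.49 and 5.56 in ob/ob/Fsp27-/- arrays and 5.48, 5.45 and 5.36 in ob/ob arrays, with both means below the array median. Its difference of 0.10 (95% interval -0.072 to 0.28) was not called (adjusted p = 0.354 from limma). Of 11 markers of germ cells and epididymis, 9 had both means below the array median, and Prm1, a sperm protamine, was lower (-0.93, adjusted p = 0.00865 from limma).

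Cox7a1 is the heart, muscle and brown fat form of subunit 7a, which lies at the edge of the enzyme. Its values were 9.34, 9.59 and 9.88 in ob/ob/Fsp27-/- arrays and 6.84, 6.91 and 7.54 in ob/ob arrays, so the genotypes were clearly apart, with array 3 the highest in each. The log2 fold change was 2.51 ± 0.21 (SE, n = 3 each), a fold of 5.68 and number 26 of all genes among increases (adjusted p = 0.000274 from limma). Cox7a2, the ubiquitous form, read 10.61, 10.58 and 10.64 in ob/ob/Fsp27-/- arrays and 9.37, 9.51 and 9.64 in ob/ob arrays. Its arrays were close together within each genotype and it was higher by 1.10 ± 0.091 (SE, n = 3 each, adjusted p = 0.000239 from limma).

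Cox7a2l encodes a protein related to subunit 7a that joins complex IV to complex III in respiratory supercomplexes, and C57BL/6J mice carry a shortened version of it. Its probeset read 8.15, 8.12 and 8.25 in ob/ob/Fsp27-/- arrays and 7.77, 7.68 and 7.91 in ob/ob arrays. The genotypes did not overlap, but the difference of 0.38 ± 0.090 (SE, n = 3 each) passed the limma test (adjusted p = 0.0173) without reaching the fold threshold. A second probeset of Cox7a2l differed by 0.46 (adjusted p = 0.0331 from limma) and was likewise below that threshold. Whether both probesets read the same locus was not checked.

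Cox4i1 is the ubiquitous form of subunit 4, the largest nuclear subunit, through which ATP regulates the enzyme. It read 11.11, 11.33 and 11.27 in ob/ob/Fsp27-/- arrays and 9.39, 9.42 and 9.68 in ob/ob arrays. The genotypes were separated by several times the spread within either. Its log2 fold change of 1.74 ± 0.11 (SE, n = 3 each, adjusted p = 9.12e-05 from limma), a fold of 3.34, was the largest among the ubiquitous forms. Cox4i2 is the lung form, known also from oxygen-sensing cells and from pericytes. It read 7.17, 7.20 and 7.11 in ob/ob/Fsp27-/- arrays and 6.79, 6.95 and 6.85 in ob/ob arrays. These values did not overlap but lay close together, and the difference of 0.30 (95% interval 0.11 to 0.48, adjusted p = 0.0286 from limma) stayed under the fold threshold.

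Genes described as acting on COX4I2 or its protein in human cells were read beside it as a list of 5, of which Chchd2 was not measured. Lonp1, a mitochondrial protease, was higher by 1.62 (adjusted p = 0.000364 from limma), and Rbpj, the DNA-binding factor of Notch signalling, was lower (-1.54, adjusted p = 0.000379 from limma). Cxxc5 (0.29, adjusted p = 0.0402 from limma) and Hif1a, the oxygen-regulated factor (-0.026, adjusted p = 0.878 from limma), were not called. Markers of pericytes and smooth muscle, cells in which Cox4i2 is found, included 6 of 14 that were higher and 0 that were lower. The shares over all genes were 9.58% and 10.8%. The median of the list was 0.37. Myh11 (1.04) and Cnn1 (1.03), contractile genes of smooth muscle, rose most, and the pericyte gene Rgs5 differed by 0.43 without a call (adjusted p = 0.0863 from limma). Among other pericyte genes, named after their values were seen, Kcnj8 (0.76) and Abcc9 (0.75) were called higher, whereas Pdgfrb differed by -0.44, short of a call by the fold threshold alone (adjusted p = 0.00401 from limma), and Cspg4 by 0.036 (adjusted p = 0.891 from limma). The mean level of the list ran between 8.22 and 8.37 in ob/ob/Fsp27-/- arrays and between 7.73 and 7.96 in ob/ob arrays, and 2 of the 14 had both means below the array median. Their part in the Cox4i2 value was not tested.

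Cox6a1 is the ubiquitous form of subunit 6a, which binds adenine nucleotides at the face of the enzyme. It read 11.27, 11.14 and 11.41 in ob/ob/Fsp27-/- arrays and 9.91, 10.06 and 10.15 in ob/ob arrays. All ob/ob/Fsp27-/- arrays lay about 1 unit or more above the highest ob/ob array, and the log2 fold change was 1.23 ± 0.10 (SE, n = 3 each, adjusted p = 0.000253 from limma). Cox6a2 is the heart and skeletal muscle form, and it read 7.23, 7.89 and 7.35 in ob/ob/Fsp27-/- arrays and 6.96, 7.03 and 7.18 in ob/ob arrays. One array, ob/ob/Fsp27-/- array 2, stood above the other five, and the lowest ob/ob/Fsp27-/- array was barely above the highest ob/ob array. The difference of 0.43 (95% interval 0.023 to 0.84) was not called (adjusted p = 0.110 from limma), and it was 0.23 without ob/ob/Fsp27-/- array 2.

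Striated muscle markers were read beside this muscle form. Of 20, 1 was higher (Pygm, muscle glycogen phosphorylase, 0.61) and 0 were lower. These shares of 5% and 0% stand against 9.58% and 10.8% of all genes. The median change was 0.081, and 17 had both means below the array median. Their mean level ran between 5.61 and 5.80 in ob/ob/Fsp27-/- arrays and between 5.50 and 5.62 in ob/ob arrays. Within ob/ob/Fsp27-/-, 14 of the 20 were highest in array 2, the array in which Cox6a2 was highest. Within ob/ob, 11 of the 20 were highest in array 1, the array in which Cox6a2 was lowest. Ckm, muscle creatine kinase, read 6.40, 6.63 and 6.36 in ob/ob/Fsp27-/- arrays and 6.50, 6.44 and 6.53 in ob/ob arrays, so that the groups overlapped. Acta1, skeletal muscle actin, differed by 0.50, a value just under the fold threshold (adjusted p = 0.0446 from limma). The part of muscle RNA in the Cox6a2 value was not tested.

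**Figure D2:**
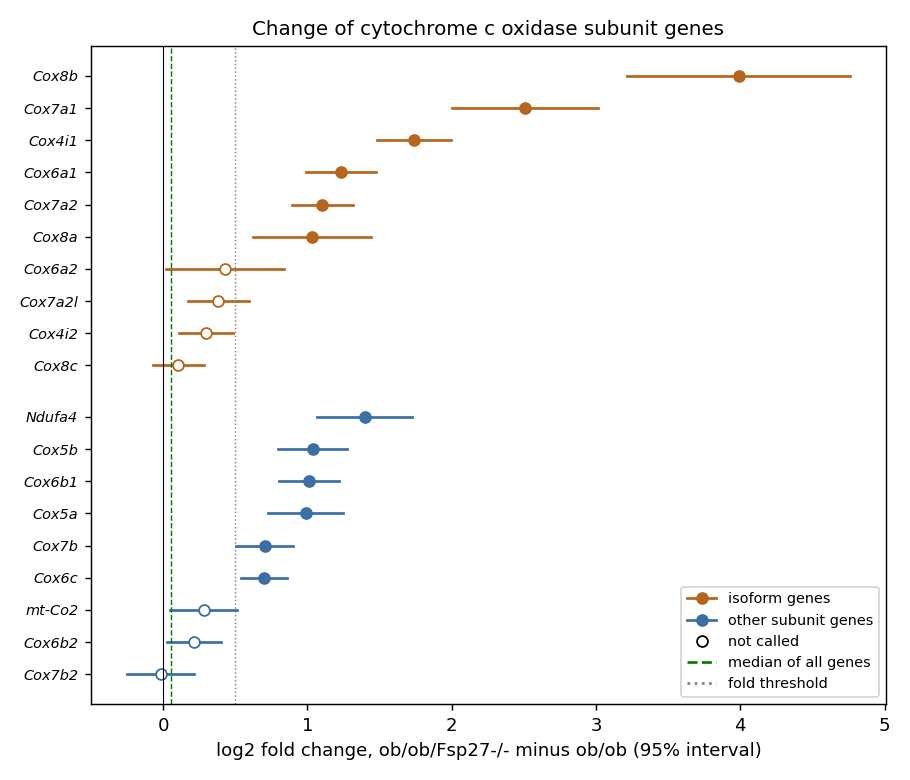
Log2 fold change, ob/ob/Fsp27-/- minus ob/ob, with its 95% interval, for the 10 isoform genes and 9 other subunit genes, open points not called. On the deposited scale Cox8b (3.99) and Cox7a1 (2.51) lie to the right of every other subunit, and the interval of Cox8c spans 0; Cox4i2, Cox6a2, Cox7a2l and Cox8c fall below 0 when arrays are centred on white adipocyte markers.

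Ordered by log2 fold change, the genes ran Cox8b, Cox7a1, Cox4i1, Cox6a1, Cox7a2, Cox8a, Cox6a2, Cox7a2l, Cox4i2 and Cox8c. The order came from the same arrays, so the upper gene of each neighbouring pair had the larger change by construction. The 9 neighbouring pairs were each compared by the difference between their genes within an array. For Cox7a2 and Cox8a, Cox6a2 and Cox7a2l, and Cox7a2l and Cox4i2, this difference overlapped between genotypes, with exact two-sided permutation p of 0.7, 1 and 0.6. For the other 6 it did not, with gaps in log2 fold change of 0.13 (Cox6a1 over Cox7a2) to 1.48 (Cox8b over Cox7a1). Their exact p was 0.1, the smallest that 3 against 3 arrays can give, and 0.15 after Benjamini-Hochberg adjustment over the 9.

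Whether the balance between forms of a subunit differed was asked within each array, as the tissue form minus the ubiquitous form. Only the difference of these values between genotypes can be read, since probe affinities cancel in it where both probesets respond alike to a change. Whether they do was not tested. The means of Cox4i2 (7.16 and 6.86) and Cox6a2 (7.49 and 7.06) in ob/ob/Fsp27-/- and ob/ob arrays lay not far above the array median of 6.49. The same held for the ob/ob mean of Cox7a1 (7.10) and for Cox8b in ob/ob array 1 (6.94). For subunit 8, Cox8b minus Cox8a was -0.40, 0.026 and -0.21 in ob/ob/Fsp27-/- arrays and -3.45, -3.25 and -2.74 in ob/ob arrays. The balance was thus shifted towards Cox8b in every ob/ob/Fsp27-/- array, by 2.96 on the log2 scale, a fold of 7.76. For subunit 7a, Cox7a1 minus Cox7a2 was -1.27, -0.99 and -0.76 in ob/ob/Fsp27-/- arrays and -2.53, -2.60 and -2.10 in ob/ob arrays, a shift of 1.40 towards the muscle form.

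Subunits 4 and 6a moved the opposite way. Cox4i2 minus Cox4i1 was -3.94, -4.13 and -4.16 in ob/ob/Fsp27-/- arrays and -2.61, -2.47 and -2.83 in ob/ob arrays, a shift of -1.44 that went with the rise of Cox4i1. Cox6a2 minus Cox6a1 was -4.03, -3.25 and -4.06 in ob/ob/Fsp27-/- arrays and -2.95, -3.03 and -2.97 in ob/ob arrays, a shift of -0.80, and ob/ob/Fsp27-/- array 2 lay close to the ob/ob arrays. The testis form gave a shift of -0.93 for Cox8c minus Cox8a, with both means of Cox8c below the array median. As single genes, 46% of all genes did not overlap between genotypes, and the share over pairs of genes was not computed. In all 5 pairs the genotypes did not overlap, and the exact two-sided permutation p was 0.1 for each and 0.1 after Benjamini-Hochberg adjustment over the 5. That is the smallest p the design allows, so no pair could pass 0.05.

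**Figure D3:**
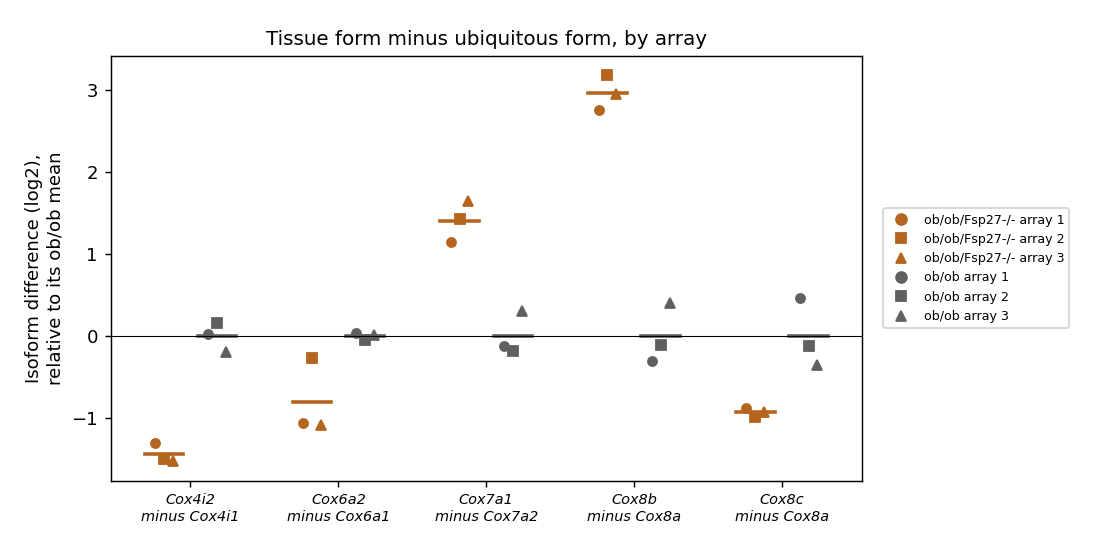
Tissue form minus ubiquitous form (log2) in each array for the 5 isoform pairs, relative to the mean of the ob/ob arrays, ob/ob/Fsp27-/- left of ob/ob, bars at the means. Subunits 7a and 8 (Cox8b) are shifted up in ob/ob/Fsp27-/- GWAT by 1.40 and 2.96, and the other 3 pairs down, by -1.44 to -0.80.

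Of 12 other complex IV subunit genes, 9 were measured. Among these, 6 were higher and 0 lower, against 9.58% and 10.8% of all genes, with a median of 0.70. Ndufa4, a subunit first assigned to complex I, rose by 1.40 (adjusted p = 0.000499 from limma), and Cox5b, which binds zinc, by 1.04 (adjusted p = 0.000449 from limma). Cox6b1 (1.01), Cox5a (0.99), Cox7b (0.70) and Cox6c (0.70) rose too, and the log2 fold changes of all 9 lay below those of Cox8b, Cox7a1 and Cox4i1. The mitochondrially encoded mt-Co2, part of the copper-binding core, read 12.83, 12.59 and 12.84 in ob/ob/Fsp27-/- arrays and 12.44, 12.56 and 12.41 in ob/ob arrays. These were close to each other, and the difference of 0.28 was not called (adjusted p = 0.0738 from limma). The testis forms Cox6b2 and Cox7b2 had both means below the array median and were not called. Cox7c lies on 3 probesets that carry several symbols and was not read, and mt-Co1 and mt-Co3 were not measured.

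Each isoform gene was then set against the mean change of 5 other ubiquitous subunits (Cox5a, Cox5b, Cox6b1, Cox6c and Cox7b), which was 0.89. Ndufa4, which rose by 1.40, was not among the 5. With Ndufa4 the mean would be higher and the relative changes lower. The mitochondrially encoded mt-Co2 (0.28) was left out too, and with it the mean would be lower and the relative changes higher. Small relative changes thus depend on this choice. Relative to that mean, Cox8b changed by 3.10, Cox7a1 by 1.62, Cox4i1 by 0.85, Cox6a1 by 0.35 and Cox7a2 by 0.22. Cox8a differed from it by 0.14, with values of 0.17, 0.16 and 0.11 in ob/ob/Fsp27-/- arrays inside the range of the ob/ob arrays, -0.33 to 0.21 (exact two-sided permutation p = 0.8). Cox6a2 (-0.46), Cox7a2l (-0.50), Cox4i2 (-0.59) and Cox8c (-0.78) lay below it. Apart from Cox8a, the genotypes did not overlap in any of the 10, each with an exact p of 0.1 (0.111 after adjustment over the 10), the smallest the design allows being 0.1. As single values, 46% of all genes did not overlap, and the share relative to the mean of the 5 subunits was not computed.

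Assembly factors insert haem and copper and join the subunits of complex IV, and 23 of 27 listed were measured. Of them, 13 were higher and 0 lower, against 9.58% and 10.8% of all genes, with a median of 0.56. The copper-pathway protein Cox19 (1.31, adjusted p = 0.00430 from limma) and Cmc2 (1.06, adjusted p = 0.00713 from limma) rose most. Cycs, the cytochrome c that feeds the enzyme with electrons in somatic cells, was higher by 0.60 (adjusted p = 0.00626 from limma), and its testis counterpart Cyct was not called (0.043, adjusted p = 0.725 from limma).

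Transcriptional regulators of oxidative metabolism moved in both directions, with 6 of 15 measured higher and 2 lower. As shares these were 40% and 13.3%, against 9.58% and 10.8% of all genes. Ppara, the nuclear receptor of fatty acid oxidation, read 7.97, 8.76 and 8.80 in ob/ob/Fsp27-/- arrays and 5.65, 6.26 and 6.36 in ob/ob arrays, a log2 fold change of 2.42 (adjusted p = 0.000819 from limma). Ppargc1a, the coactivator of mitochondrial biogenesis, read 7.70 to 7.85 in ob/ob/Fsp27-/- arrays and 5.62 to 6.06 in ob/ob arrays, a log2 fold change of 1.88 (adjusted p = 0.000123 from limma). Both were apart between genotypes by well over their spread. Ppargc1b (1.73), Esrrg (0.88), Esrra (0.68) and Tfam (0.55) were also higher. Nrf1 (-0.09) and Gabpa (0.24), whose core sequences were searched in the promoters, were not called (adjusted p = 0.470 and 0.0821 from limma). Mef2c (-0.81, adjusted p = 0.00355 from limma) and Mef2a (-0.63, adjusted p = 0.00788 from limma), factors known from muscle and also from macrophages, were lower in ob/ob/Fsp27-/-.

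Cox8b and Cox7a1 are known from brown fat, and brown and beige markers were read beside them. Of 15 measured, 5 were higher and 0 lower, against 9.58% and 10.8% of all genes. The median was 0.36, and 7 were below the array median in both genotypes. Elovl3, a fatty acid elongase, rose by 5.97 (adjusted p = 7.06e-06 from limma), and Cidea, the relative of Fsp27 on brown fat lipid droplets, by 3.07 (adjusted p = 0.000305 from limma). Heat production in brown fat rests on Ucp1, which read 6.07, 5.34 and 6.03 in ob/ob/Fsp27-/- arrays and 5.19, 4.93 and 6.10 in ob/ob arrays. Its groups overlapped and it was not called (0.40, adjusted p = 0.415 from limma). The mean level of the list ran between 7.16 and 7.31 in ob/ob/Fsp27-/- arrays and between 6.12 and 6.42 in ob/ob arrays.

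**Figure D4:**
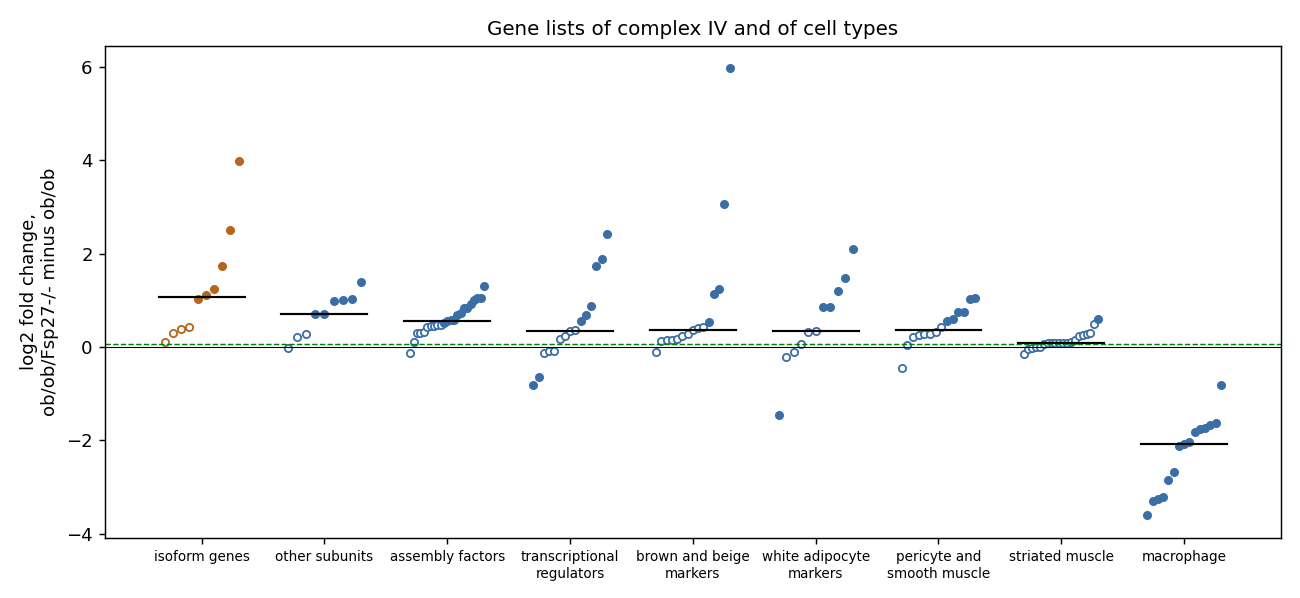
Log2 fold change, ob/ob/Fsp27-/- minus ob/ob, of every measured gene in the complex IV lists and in lists of cell type markers, open points not called, bars at list medians, dashed line at the median of all genes. Complex IV lists lie mostly above that line, striated muscle markers close to it, and all 15 macrophage markers below it.

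The ob/ob arrays differed among themselves in a way that touched the isoform genes. In ob/ob array 1, 0 of the 6 called genes were above their own ob/ob mean, with a mean deviation of -0.29, and in ob/ob array 3 all 6 were above it, with 0.31. White adipocyte markers were ordered alike: 10 of 11 were lowest in ob/ob array 1, and the mean of the list ran between 11.75 and 11.85 in ob/ob/Fsp27-/- arrays and between 10.89 and 11.64 in ob/ob arrays. Of these 11 markers, 5 were higher and 1 lower, against 9.58% and 10.8% of all genes. Slc2a4, the insulin-responsive glucose transporter (2.10), and Retn, resistin (1.47), rose most, while Nnat (-1.47) was lower. When every array was centred on the mean of these markers, an alternative chosen after seeing the data, 4 isoform genes were still called higher: Cox8b (3.50), Cox7a1 (2.02), Cox4i1 (1.25) and Cox6a1 (0.74). Cox7a2 (0.61) and Cox8a (0.54) were no longer called, with adjusted p of 0.0935 and 0.144 from limma. Under that centring the median of all genes was -0.43 and 433 genes were called higher and 4359 lower, against 1910 and 2158 on the deposited scale. Relative to the median of all genes, the isoform genes changed by 0.046 for Cox8c to 3.93 for Cox8b. These values are the same on both scales by construction, because centring takes 1 value per array from every gene. Their equality therefore says nothing about the part of adipocyte content, which was not tested.

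For each called isoform gene, the 3 genes with the most similar pattern were sought by the root mean square (RMS) difference over the 6 arrays, each gene relative to its own ob/ob mean. Nearest to Cox4i1 were Pmm1 and the complex III subunits Uqcrc1 and Uqcrfs1, at RMS differences of 0.060 to 0.072. Cox6a1 was nearest to Plbd1, Dhrs4 and the fatty acid oxidation enzyme Acadl (0.031 to 0.060). Cox7a2 was nearest to Letm1, Sdha of complex II and Pcnx (0.043 to 0.046), and Cox8a to Cry2, Mid2 and Cd1d1 (0.033 to 0.042). The muscle and brown fat forms had less close neighbours: Dusp15, Aldh3b2 and Oplah for Cox7a1 (0.15 to 0.18), and Dnajc6, Sptlc3 and Shisa6 for Cox8b (0.63 to 0.67). The log2 fold changes of these Cox8b neighbours, 3.38 to 3.60, all lay below that of Cox8b. The RMS difference grows where sizes of change differ, and Cox8b and Cox7a1 were number 3 and 26 of all genes among increases. Few genes with changes of their size were thus there to be near, and likeness apart from size was not tested.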

How the data were processed

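GWAT RNA of 3 ob/ob/Fsp27-/- and 3 ob/ob arrays was compared. The deposited table holds log2 values: the authors adjusted the background, normalized by quantiles and summarized probes with RMA, whose version is not given in the sources used here. Quantile normalization sets all arrays to 1 distribution, so changes are relative to the bulk of genes. Of 34760 probesets, 21640 carry 1 gene symbol, 1321 several and 11799 none, and symbols were updated by Entrez number for 21553. The 22961 probesets with a symbol were tested in R 4.3.3 with limma 3.58.1 (lmFit, eBayes, no covariates) and Benjamini-Hochberg adjustment over all of them. The highest-mean probeset stood for each of 954 genes with several, and whether the probesets of a gene read the same locus was not checked. Isoform balances were compared by two-sided exact permutation tests over arrays. Arrays have no read depth, and their number limits the precision. Detection above background, which the authors filtered on, cannot be computed without single-probe values and was left out.

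All 10 isoform genes are named. In each other list the 2 largest called increases and decreases are named, every gene of lists of 5 or fewer, the 3 genes nearest in pattern to each called isoform gene, and Cidec, Ucp1, Adipoq, Acta1, Ckm, Adgre1 and Rgs5. Other genes of the complex IV and regulator lists were named after their values were seen. Members and lists were chosen with earlier results of these data known. Adgre1, a macrophage marker, was lower (-3.21, limma adjusted p = 7.82e-06), and the largest decreases of that list were Itgax (-3.61) and Itgam (-3.30). Of 11 housekeeping genes measured, 0 were called by limma (adjusted p under 0.05 and size of at least 0.5). They were not all unchanged: in 7 the genotypes did not overlap, against 46% of all genes. Pgk1 (0.45, limma adjusted p = 0.0127) and Ywhaz (-0.45, limma adjusted p = 0.0433) differed most and missed a call by the fold threshold alone.

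Promoter sequences and motif shares were computed from RefSeq windows (GRCm38.p6) in python 3.11.15, and figures were made with matplotlib 3.10.9. The limma procedure was tested on simulated data. Alternatives were other centrings, cyclic loess, low-value filters (30th percentile, or median, of the table), inclusion of unnamed probesets, the mean of a gene's probesets, limma-trend, robust eBayes, array weights, no fold threshold, a threshold of 1, treat, and leaving out each array in turn.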

Additional observations from a re-analysis of the deposited data

How the results depend on the processing

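The count of isoform genes called higher was 6 with each array left out in turn and 4 to 8 under the other alternatives, and 0 were called lower under any. Without a fold threshold, Cox4i2 (0.30) and Cox7a2l (0.38) were added. Of all genes, that setting called 2936 higher and 3052 lower, against 1910 and 2158 with the threshold. Under treat Cox8a was lost. Centring on white adipocyte markers, chosen after seeing the data, turned Cox4i2 (-0.19), Cox6a2 (-0.059), Cox7a2l (-0.11) and Cox8c (-0.39) negative, and the reason is in its construction, since the mean of these markers was itself higher in ob/ob/Fsp27-/- arrays. It left 1 other subunit, 1 assembly factor, 0 cytochrome c genes and 3 regulators called higher. Among all genes, 433 were then called higher and 4359 lower. With a fold threshold of 1, 3 other subunits, 3 assembly factors, 0 cytochrome c genes and 3 regulators were called higher and 0 regulators lower. The counts over all genes fell as well, to 652 higher and 955 lower. Under treat, 2 assembly factors, 0 cytochrome c genes and 3 regulators were called higher and 0 regulators lower. Treat called 566 of all genes higher and 939 lower. Without a fold threshold, 2 of the genes described in connection with the forms of subunit 4 were called higher.

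Leaving out each array in turn gave 11 to 16 assembly factors, 6 other subunits in every case and 5 to 6 regulators called higher, with 2 regulators lower. Log2 fold changes then ran 3.63 to 4.33 for Cox8b, 2.37 to 2.73 for Cox7a1, 1.68 to 1.83 for Cox4i1, 1.17 to 1.30 for Cox6a1, 1.04 to 1.17 for Cox7a2 and 0.82 to 1.17 for Cox8a. Pair differences ran 2.81 to 3.16 for Cox8b minus Cox8a, 1.28 to 1.56 for Cox7a1 minus Cox7a2, -1.54 to -1.36 for Cox4i2 minus Cox4i1, -1.07 to -0.66 for Cox6a2 minus Cox6a1 and -1.10 to -0.70 for Cox8c minus Cox8a. Cox8c gave no value under the filter at the median. No paired analysis was possible because the labels give the genotypes no shared replicate numbers. A design of 3 against 3 can miss small changes, and the signal of dim genes over background was not measured.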
